A study of Mus musculus with 768 samples.

Results

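The genes described here are 5 transcripts for mucin-like cell surface proteins of endothelium other than Glycam1: Cd34, Podxl, Emcn, Parm1 and Madcam1. They were chosen by symbol, with no measured value in the rule, and all 5 were found among the 51734 gene symbols of the count tables. High endothelial venules (HEVs) are the vessels through which lymphocytes enter lymph nodes, and single endothelial cells of 3 kinds were compared. LN_HEV cells came from lymph node and TU_HEV cells from PyMT tumours, which arise in the mammary gland of mice carrying the polyoma middle T antigen, and both were sorted as CD45-negative, CD31-positive and MECA-79-positive. TU_EC cells were CD45-negative, CD31-positive and MECA-79-negative cells of PyMT tumours. The labels name no strain, age, treatment or number of animals for any group. Each group was therefore 1 sample, and no test between groups was made. Libraries were made with Smart-seq2, which covers whole transcripts and carries no molecular identifiers.

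A sialomucin is a protein whose extracellular part carries many O-linked glycans ending in sialic acid. In HEVs these glycans are sulfated and fucosylated, and they then bind L-selectin on lymphocytes, so that the proteins serve as scaffolds for the ligand. The antibody MECA-79 binds sulfated forms of these glycans and does not require the fucose. CD34 and podocalyxin (Podxl) belong to 1 family and are found on most vascular endothelium, where they carry the L-selectin ligand only if the cell makes the glycan. Endomucin (Emcn) is a mucin of venous and capillary endothelium. MAdCAM-1 (Madcam1) joins immunoglobulin domains, which bind the lymphocyte integrin alpha4beta7, to a mucin stalk, and marks HEVs of mucosal lymphoid tissue. PARM-1 (Parm1) is a mucin-like membrane protein first described in prostate. The MECA-79 gate selects the glycan and not the transcript of any scaffold.

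After the 11 pool1 libraries named below were left out, filters on reads and on endothelial markers kept 542 of 768 wells. LN_HEV kept 62 cells of plate pool1 and 79 of pool2. TU_HEV kept 98, of which 50 were of pool3 and 48 of pool4, and TU_EC kept 68, 81, 82 and 72 of poolA to poolD. Retained cells held between 58737 and 4002554 counts; the medians of LN_HEV, TU_HEV and TU_EC were 1056419, 1431389 and 625611. The 11 left-out pool1 libraries hold the counts of 19 TU_HEV libraries: at least 95% of the genes with 5 or more counts in the TU_HEV library had at least as many in the pool1 library. A further 2 pool1 libraries (26 and 33) of the retained LN_HEV cells also held a TU_HEV library by this measure. Without them each of the 15 log2 ratios of the 5 genes moved by at most 1 standard deviation over pairs of plates. TU_EC libraries are in another file and number series than the rest, so that any difference between those sets of libraries cannot be told apart from TU_EC.

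Cells were retained by counts of 5 pan-endothelial genes, so that the high share of cells with each of these (at least 85.7% in each group) is no independent check of the label. Of the wells that passed the read filters, 7 of LN_HEV, 3 of TU_HEV and 6 of TU_EC were left out by the marker rule. The rule also limited epithelial, leukocyte and stromal markers. All 6 epithelial and tumour markers were at 0 in LN_HEV and TU_HEV and summed to 0.253 counts scaled to the total (CPM, counts per 1e6) in TU_EC. T cell markers were all at 0 in both tumour groups. Flt3, Mpo and Cpa3, markers of the blood progenitors and mast cells that can also carry CD34, were at 0 in all 3 groups. Kit, the remaining marker tallied for these cells, was present in every group. Its levels, with LN_HEV first, TU_HEV next and TU_EC last, were 159.3, 124.3 and 140.1 CPM. Kit had a count in 70.2%, 45.9% and 48.8% of their cells, and its source was not tested. Erythroid and platelet markers summed to 1747 CPM in LN_HEV (400 to 2676 over plates), 6.45 in TU_HEV and 2.12 in TU_EC, and lymphatic markers to 17.5, 34.3 and 500 CPM; their part in the results was not tested, except for Parm1 below. Ribosomal RNA features held 13.5% of the LN_HEV total, 8.09% of the TU_HEV total and 25.3% of the TU_EC total, which lowers every CPM of TU_EC relative to TU_HEV.

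The regulatory sequence next to the start of 4 of the genes is shown before their levels, since these genes differed in which cells held them. The sequences are from RefSeq (mouse build GRCm38.p6, plus strand, 5′ to 3′) and end before the first base of the transcript; Podxl is not printed. They were searched on both strands for the consensus of NF-kB, for AGGAAG, which ETS factors of endothelium bind, and for GATAA, which GATA factors bind. No search motif overlapped another in a printed window.

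Madcam1, chr10:79664309-79664558: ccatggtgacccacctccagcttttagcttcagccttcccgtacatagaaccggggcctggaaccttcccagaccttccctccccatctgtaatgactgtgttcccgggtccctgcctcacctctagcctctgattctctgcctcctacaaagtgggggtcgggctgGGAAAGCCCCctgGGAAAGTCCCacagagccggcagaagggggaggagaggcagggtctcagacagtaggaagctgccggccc
Cd34, chr1:194938571-194938818: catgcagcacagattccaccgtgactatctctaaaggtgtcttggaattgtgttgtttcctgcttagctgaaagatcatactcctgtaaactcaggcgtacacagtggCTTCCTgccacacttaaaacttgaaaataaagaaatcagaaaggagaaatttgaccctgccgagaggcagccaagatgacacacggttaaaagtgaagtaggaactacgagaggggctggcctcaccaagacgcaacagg
Emcn, chr3:137340828-137341066: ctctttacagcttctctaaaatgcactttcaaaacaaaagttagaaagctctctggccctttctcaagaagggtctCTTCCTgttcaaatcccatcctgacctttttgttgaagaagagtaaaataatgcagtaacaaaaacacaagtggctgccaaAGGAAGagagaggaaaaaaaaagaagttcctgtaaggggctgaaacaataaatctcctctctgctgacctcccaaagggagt
Parm1, chr5:91517450-91517614: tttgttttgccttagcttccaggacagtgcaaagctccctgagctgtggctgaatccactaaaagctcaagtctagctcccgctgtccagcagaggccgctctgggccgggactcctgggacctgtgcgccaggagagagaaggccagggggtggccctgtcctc

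Capitals in Madcam1 mark 2 NF-kB consensus matches on the minus strand, which begin 83 and 70 bases before the start. All windows searched were the 250 bases before a start. At least 1 such match was found in 1281 (3.90%) of the 32851 promoter windows, at least 2 in 0.493%, and 2 whose starts lay within 20 bases of each other in 0.396%. Capitals in Cd34 and Emcn mark AGGAAG on either strand: 1 match in Cd34 and 2 in Emcn, the nearer of which lies 93 bases before the start. Madcam1 has a further AGGAAG, in lower case, 16 bases before its start. AGGAAG was in 29.5% of all windows, so that its presence does not set these genes apart. Parm1 had no match to NF-kB or AGGAAG, and none of the 4 windows held GATAA, which was in 22.6% of all. Over the 250-base windows, which can be longer than the printed sequences, Parm1 had a GC content of 65.2%. The values were 61.2% for Madcam1, 46.4% for Cd34 and 40.8% for Emcn, with a median of 52.4% over all windows. The printed Parm1 sequence is the shortest of the 4. The genes lie on 5 chromosomes of GRCm38: Cd34 at chr1:194938819-194961279, Podxl at chr6:31519488-31563981 (minus strand), Emcn at chr3:137341067-137432185, Parm1 at chr5:91517615-91626894 and Madcam1 at chr10:79664559-79668537.

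Cd34 and Emcn were the most abundant of the 5 genes in each group, and both had their lowest level in LN_HEV. Podxl was lowest in LN_HEV, intermediate in TU_HEV and highest in TU_EC. Parm1 ran the other way: it was frequent in LN_HEV, had no count in TU_HEV and was in 5 cells of TU_EC. Madcam1 was in few cells of any group.

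**Figure D1:**
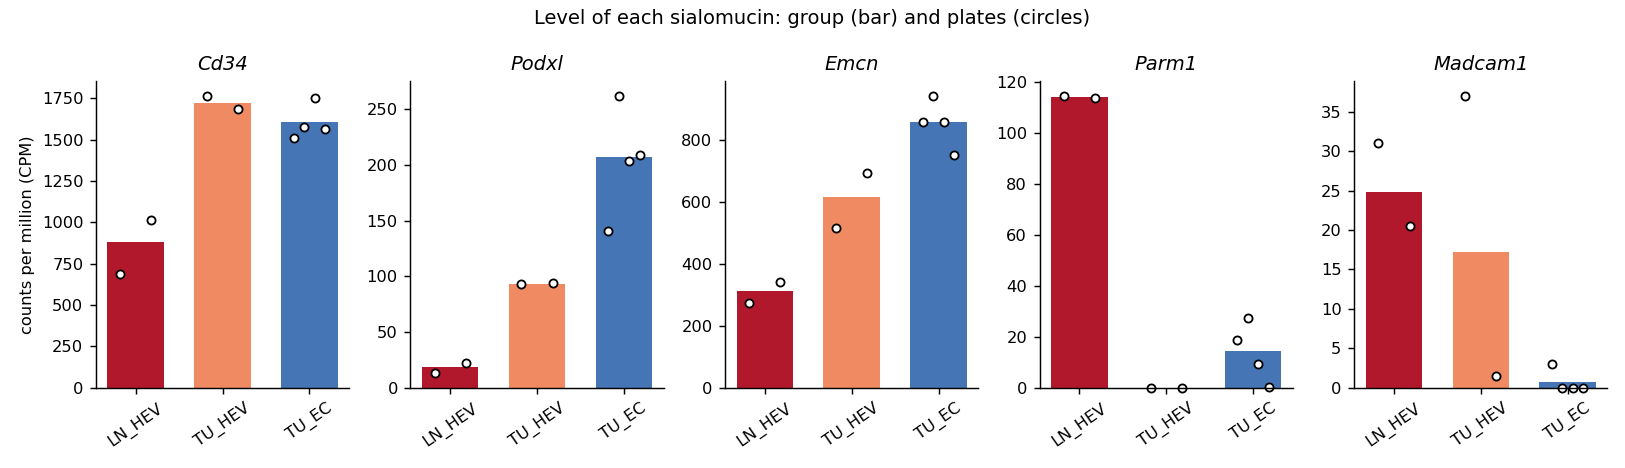
Level of each of the 5 genes in CPM, with bars for the sum over a group and open circles for its plates. In both TU_HEV plates Podxl lies near 93 CPM, between LN_HEV and TU_EC, while Parm1 is at 114.7 and 113.6 CPM in the LN_HEV plates and at 0 in TU_HEV.

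Podocalyxin differed between all 3 groups. Its level was 18.3 CPM in LN_HEV (13.1 in pool1 and 22.0 in pool2), with an exact Poisson 95% interval of 17.6 to 19.1. Like all intervals here, it covers counting error only and treats reads as independent, which reads copied by PCR are not. TU_HEV had 93.5 CPM (93.1 in pool3 and 93.8 in pool4). TU_EC had 206.8 CPM (140.7, 262.4, 203.6 and 209.4 in poolA to poolD). No plate of any group overlapped the plates of another. Podxl was 5.10-fold higher in TU_HEV than in LN_HEV (counting interval 4.89 to 5.32; 4.24 to 7.18 over pairs of plates). It was 2.21-fold higher in TU_EC than in TU_HEV (1.499 to 2.82 over pairs) and 11.3-fold higher in TU_EC than in LN_HEV (6.40 to 20.1 over pairs).

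The gradient of Podxl was in how many cells held it and, for TU_EC, also in the level of the cells with a count. At least 1 count was found in 14.2% of LN_HEV cells (20 cells, exact binomial 95% interval 8.89 to 21.1%), 44.9% of TU_HEV cells (44 cells, 34.8 to 55.3%) and 79.5% of TU_EC cells (74.5 to 83.9%). Shares ran in the same order after each cell was thinned to 100000 counts, at 12.1%, 40.8% and 76.0%. Among cells with a count, the median was 107.9 CPM in LN_HEV and 99.03 in TU_HEV, against 196.7 in TU_EC. In pool3 the 5 highest cells gave 84.4% of the Podxl counts, and the median cell of that plate had none. The 2.21-fold difference between the tumour groups went under 2-fold when the held TU_HEV libraries were left out (log2 -0.94), without poolB (-0.99), with equal weight per cell (-0.97) and in thinned cells (-0.94).

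CD34, the family's founding member and a common marker of vascular endothelium, was present in nearly every cell of the MECA-79-positive groups. It had 882 CPM in LN_HEV (689 in pool1 and 1015 in pool2), 1722 in TU_HEV (1766 and 1687) and 1606 in TU_EC (1512 to 1750 over 4 plates). Both LN_HEV plates were below all 6 tumour plates, and the plates of TU_HEV and TU_EC overlapped. Cd34 was 1.95-fold higher in TU_HEV than in LN_HEV, with pairs of plates from 1.66 to 2.57, so that it lay just inside a 2-fold threshold. TU_HEV over TU_EC gave 1.07 (0.964 to 1.17 over pairs). With size factors in place of totals the log2 ratio of that last comparison was -0.31, and without ribosomal RNA and mitochondrial features it was -0.20, against 0.10, so its direction depends on the scaling.

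Cd34 had a count in 97.9% of LN_HEV cells, 97.96% of TU_HEV cells and 90.4% of TU_EC cells. The lower share of TU_EC remained after thinning (97.1%, 96.9% and 87.7%). The 10th percentile of cells was 1.46 CPM in TU_EC, against 218.7 in LN_HEV and 472 in TU_HEV. Only 2 of the 9 TU_EC cells with at least 3 of 6 lymphatic markers at 10 CPM had Cd34 at 10 CPM, against 89.8% of the other TU_EC cells. A gene model that shares exon bases with Cd34, Gm16897, had counts in 23.4%, 41.8% and 29.7% of cells, and reads in shared bases cannot be assigned to either with certainty.

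Endomucin was higher in the order LN_HEV, TU_HEV, TU_EC by level but not by the share of cells. Its level was 312.8 CPM in LN_HEV (272.9 and 340.4), 615 in TU_HEV (516 and 693) and 858 in TU_EC (751 to 944). The plates of the 3 groups did not overlap. TU_HEV was 1.97-fold higher than LN_HEV (1.51 to 2.54 over pairs of plates), TU_EC 1.395-fold higher than TU_HEV (1.08 to 1.83) and TU_EC 2.74-fold higher than LN_HEV (2.21 to 3.46). The shares of cells with a count were 87.9%, 90.8% and 88.4%, with overlapping intervals. The difference in Emcn thus lay in the level per cell, with medians of 275.4, 550 and 740 CPM in cells with a count.

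**Figure D2:**
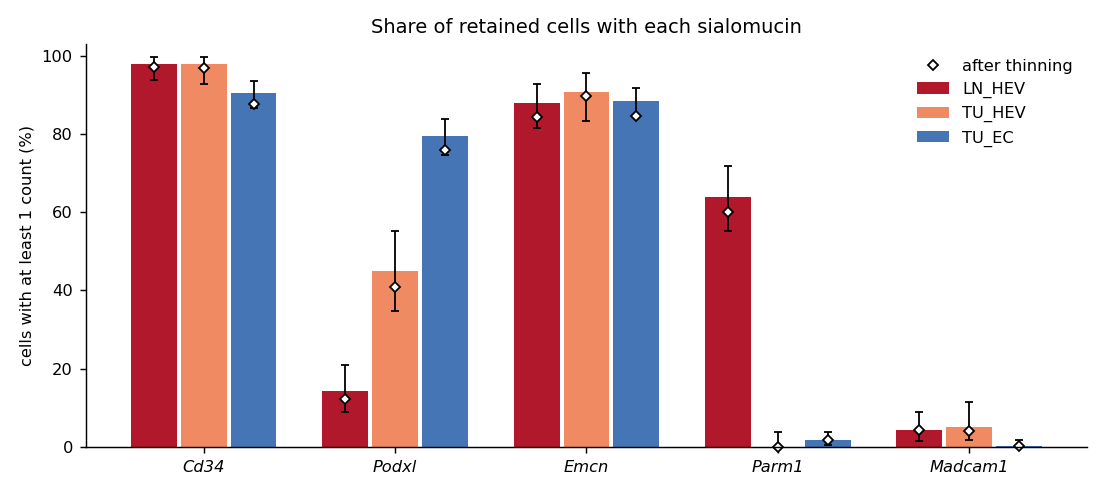
Percent of retained cells with at least 1 count of each gene; bars are groups, lines are exact binomial 95% intervals and diamonds are shares after thinning to 100000 counts. Podxl climbs from 14.2% to 79.5% over LN_HEV, TU_HEV and TU_EC while Emcn stays near 90% in all 3, and Parm1 is seen in 63.8% of LN_HEV cells and in none of TU_HEV.

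Parm1 was frequent in lymph node HEV cells and had no count in tumour HEV cells. In LN_HEV its level was 114.7 CPM in pool1 and 113.6 in pool2, and both TU_HEV plates had 0 counts. A count was found in 90 LN_HEV cells (63.8%, interval 55.3 to 71.8%), and 83 had at least 10 CPM. In TU_HEV it was found in 0 of 98 cells, which allows a share of up to 3.06% of cells with a count. Against a floor of 3 counts over the TU_HEV group, LN_HEV was 5558-fold higher. The counting interval began at 4520-fold, and pairs of plates gave 2444 to 3123. The ratio against the floor is set by the summed depth of TU_HEV: on the log2 scale it was 12.44, and it was 11.60 without pool3, 11.26 without pool4 and 8.60 in thinned cells. The median total per cell was highest in TU_HEV among the 3 groups.

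In TU_EC Parm1 had 14.4 CPM (18.6, 27.5, 9.43 and 0.236 in poolA to poolD), all from 5 cells (1.65%). LN_HEV was 7.93-fold higher than TU_EC (7.63 to 8.24 by counting, 4.13 to 485 over pairs of plates). TU_EC was 701-fold higher than TU_HEV against the same floor, with a counting interval that began at 570-fold. The latter ratio was between 5.09 and 748 over pairs of plates. Its log2 value for TU_HEV over TU_EC, -9.45, was -8.61 without pool3, -8.27 without pool4, -8.84 without poolB, -8.53 with equal weight per cell and -4.68 in thinned cells. These cells were not typical of TU_EC: 4 of the 5 had at least 3 of the 6 lymphatic markers (Prox1, Lyve1, Pdpn, Flt4, Mmrn1, Reln) at 10 CPM, as had 9 TU_EC cells in all. Their Parm1 values were 835, 848, 391 and 188.5 CPM. The fifth had 35.3 CPM and only Flt4 of the list. When the 13 TU_EC cells with at least 2 lymphatic markers were left out, the log2 ratio of LN_HEV over TU_EC went from 2.99 to 10.95, and that of TU_HEV over TU_EC to -1.49. Without poolB the former was 3.6, with equal weight per cell 3.90 and in thinned cells 3.91. In LN_HEV no cell had 3 such markers, and 80 of the 90 cells with Parm1 had none of the list at 10 CPM.

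Within LN_HEV the Parm1-bearing cells were not set apart by the other genes. Of the 83 cells with Parm1 at 10 CPM, 79 also had Cd34 and 68 had Emcn, and 82 had Chst4, the sulfotransferase that completes the MECA-79 epitope. Spearman's rho of Parm1 over cells of a plate was between -0.11 and 0.15 with Glycam1 and between -0.12 and -0.08 with Emcn. No feature reached 0.3 in both plates. Among the vessel lists the largest value was with tip cell genes, at 0.25 and 0.26, a list that summed to only 117.7 CPM in LN_HEV.

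Madcam1 came from a handful of cells with high values. It had 24.8 CPM in LN_HEV (31.0 and 20.5), 17.15 in TU_HEV (37.1 in pool3 and 1.42 in pool4) and 0.690 in TU_EC (3.04 in poolA and 0 in the other plates). Only 6 LN_HEV cells (4.26%), 5 TU_HEV cells (5.10%) and 1 TU_EC cell (0.330%) had a count. The commonest B cell marker, of a cell type that endothelium should lack, was in 2.13% of LN_HEV, 2.04% of TU_HEV and 0.990% of TU_EC cells, but the B cell markers of TU_EC summed to only 0.0226 CPM. The TU_EC cell with Madcam1 had 95.5 CPM of it, with 1457 CPM of Selp and 594 of Ackr1, genes of venular endothelium, and no Chst4. The 6 LN_HEV cells had 803, 1470, 513, 658, 194.2 and 112.6 CPM. The 5 TU_HEV cells had 330.5, 16.7, 1497, 198.5 and 46.9 CPM. A single TU_HEV cell thus held 1849 of the group's 2508 counts.

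LN_HEV over TU_HEV was 1.45 for Madcam1, with 0.553 to 21.8 over pairs of plates, which shows no order of these groups. Without pool4 the log2 ratio went from 0.53 to -0.58, without pool3 to 4.13, and with the 11 left-out pool1 libraries to 1.54. TU_HEV over TU_EC was 24.9 and LN_HEV over TU_EC 35.9, both against a level made by 1 cell. Over pairs of plates these were 0.468 to 754 and 6.75 to 631. On the log2 scale the first was 1.04 without pool3, 5.75 without pool4 and 9.94 without poolA in place of 4.64. The second was 10.47 without poolA and 6.18 with the 11 left-out pool1 libraries in place of 5.17. With equal weight per cell they were 6.08 and 6.40, and in thinned cells 6.13 and 6.43.

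**Figure D3:**
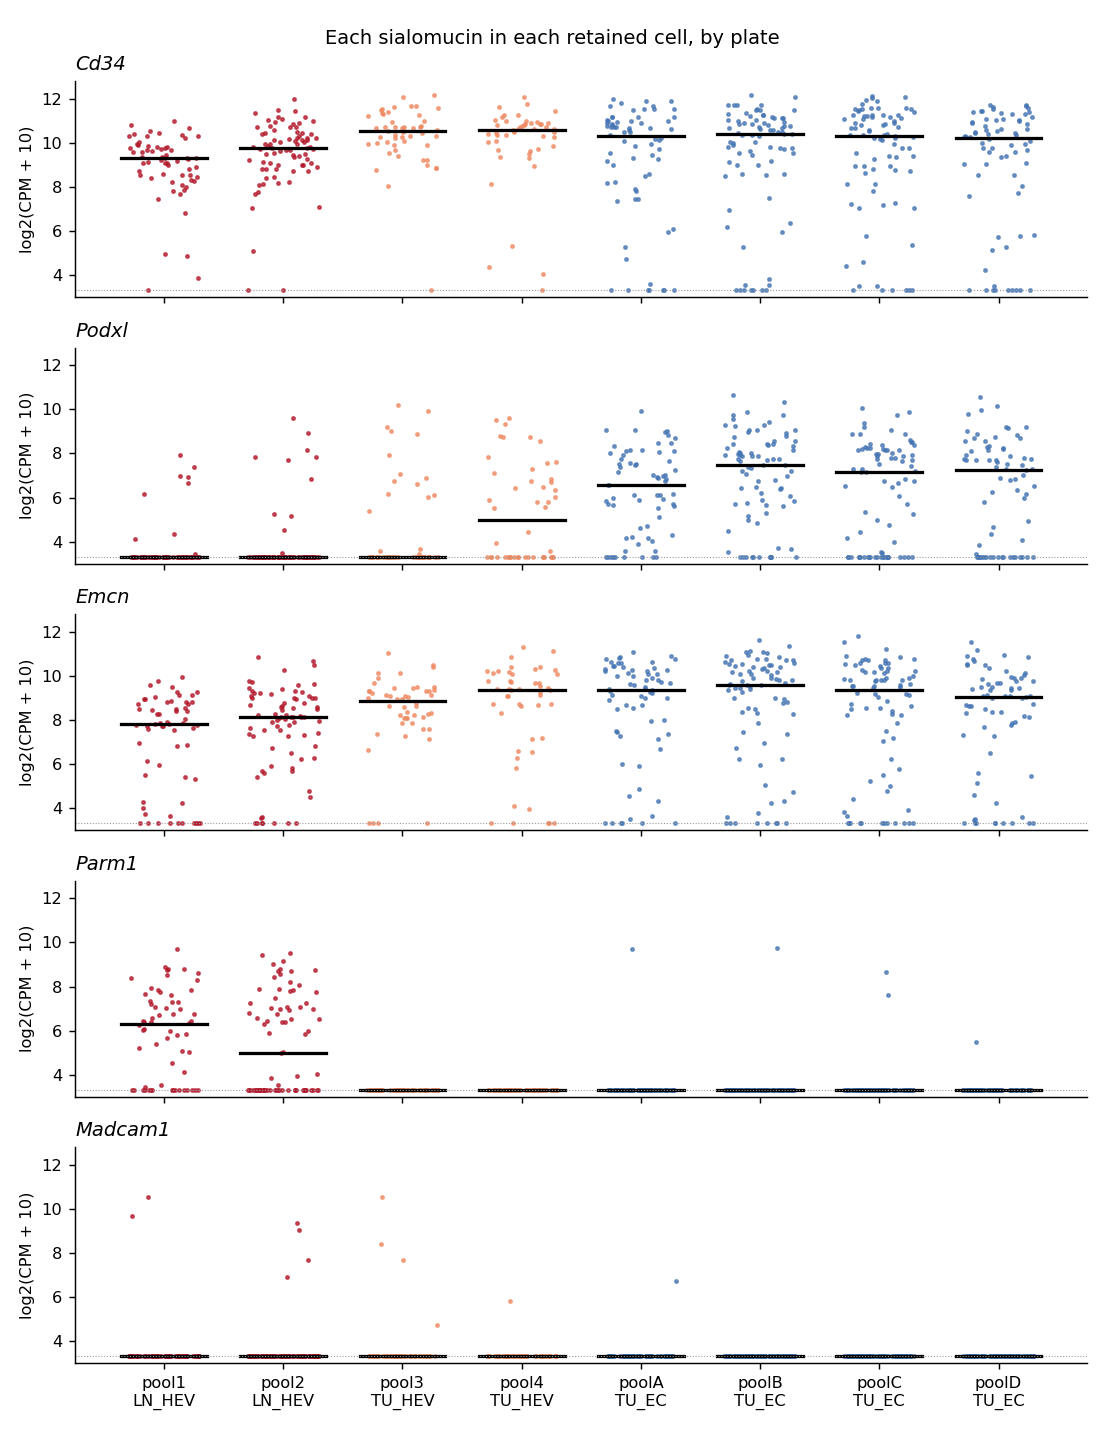
Each retained cell by plate, as log2(CPM + 10), with a black line at the median; the dotted line is a cell without a count. Madcam1 is a few separate cells per plate, Parm1 is frequent in the 2 LN_HEV plates and seen in 5 cells elsewhere, and more than 50% of the TU_HEV cells have no Podxl.

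The TU_HEV cells with Madcam1 mostly carried Chst4, the sulfotransferase of the MECA-79 glycan. Chst4 was at 10 CPM in 4 of the 5, against 41 of all 98 TU_HEV cells. In 3 of these 4, Chst4 had 751, 675 and 510 CPM and Fut7, the fucosyltransferase of L-selectin ligands, 275.9, 196.7 and 398 CPM, while Glycam1 had none; the other had 16.2 CPM of Chst4 and 24.7 of Glycam1. The cell without Chst4 had the lowest Madcam1 and the highest Podxl of the 5, at 16.7 and 1149 CPM. With 5 cells these are descriptions. In LN_HEV, where all but 2 cells had Chst4 at 10 CPM, each of the 6 Madcam1 cells did. Podxl was at 10 CPM in 15 of the 41 Chst4-bearing TU_HEV cells and 24 of the others, and Emcn in 38 and 49.

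**Figure D4:**
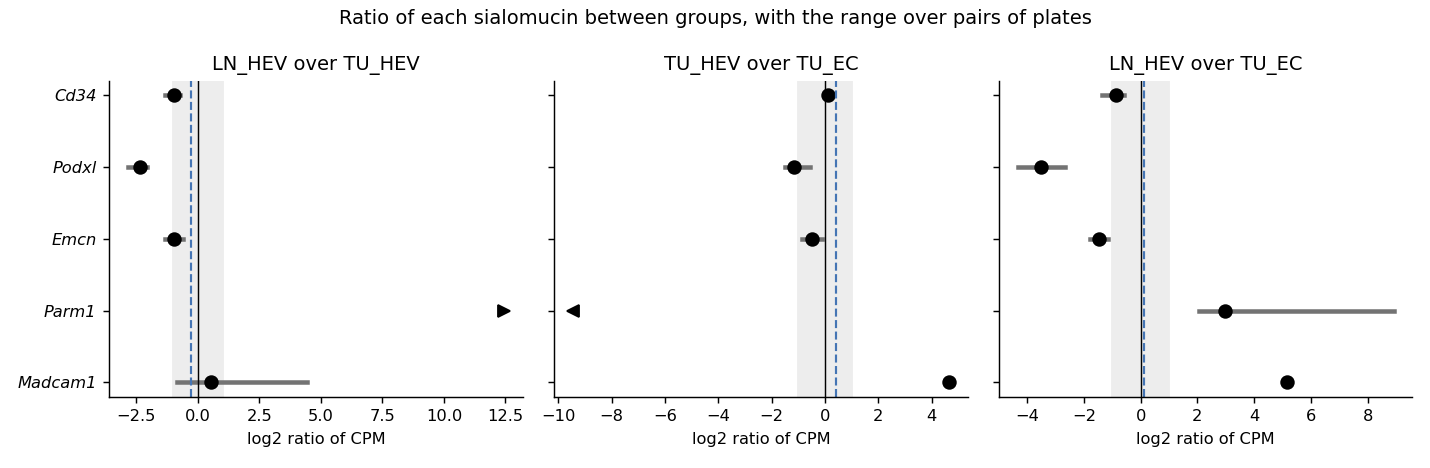
Log2 ratio of each gene in the 3 comparisons. Grey lines are the range over pairs of plates, given where every plate had a count. Triangles are ratios against the floor of 3 counts for a group at 0. The grey band is under 2-fold and the dashed line is the median of all features tested. The point of Podxl is beyond the band in all 3 panels. Its range over pairs of plates enters the band for TU_HEV over TU_EC (-1.49 to -0.58). Cd34 and Emcn lie at the edge of the band between LN_HEV and TU_HEV.

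Against all features with at least 10 CPM in the higher group, the 5 genes were few in number, and a share of them says little by itself. LN_HEV had 1 of the 5 at least 2-fold higher than TU_HEV (Parm1), where 8.82% of 9442 features were, and 1 at least 2-fold lower (Podxl), where 21.8% were. TU_HEV had 1 at least 2-fold higher than TU_EC (Madcam1; 20.6% of 9245 features) and 2 at least 2-fold lower (Podxl and Parm1; 6.55%). LN_HEV had 2 at least 2-fold higher than TU_EC (Parm1 and Madcam1; 17.2% of 9234 features) and 2 at least 2-fold lower (Podxl and Emcn; 15.6%). The median log2 ratio of the 5 genes was -0.97, -0.48 and -0.87 in the 3 comparisons, and that of all features -0.29, 0.40 and 0.13. The 3 comparisons share groups and are not independent. With size factors the median of all features was 0.01, -0.04 and -0.01. The calls made higher in the first group then went from 28.8% to 47.5% of all calls for LN_HEV against TU_HEV and from 75.9% to 46.5% for TU_HEV against TU_EC.

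Per length of transcript (RPKM, that is CPM per kilobase of merged exons), the order of the genes changed between groups in its lower part only. In LN_HEV it was Cd34 (94.4 and 139.2 in its plates), Emcn at 57.8, Parm1 22.5, Madcam1 17.3 and Podxl 3.34 RPKM. In TU_HEV Cd34 had 236.2, Emcn 113.6, Podxl 17.0 and Madcam1 11.9 RPKM, and Parm1 none. TU_EC had 220.3, 158.6 and 37.7 RPKM of Cd34, Emcn and Podxl, then 2.84 of Parm1 and 0.480 of Madcam1. Podxl and Madcam1 in TU_HEV do not differ beyond their plates (17.0 and 17.1 against 25.8 and 0.989 RPKM).

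Other scaffolds give these levels a scale. Glycam1, a secreted mucin of HEVs, had 30302 RPKM in LN_HEV, 59.9 in TU_HEV and 0.093 in TU_EC. Summed over LN_HEV, Glycam1 was 6.46% of all counts. In TU_HEV the 5 highest cells held 73.6% of the Glycam1 counts, the median cell had none, and 19.4% of cells had 10 CPM. Cd300lg (nepmucin, another L-selectin ligand scaffold of HEVs) ran opposite to Podxl: 306.8, 239.3 and 93.95 RPKM, with counts in 94.3%, 92.9% and 55.4% of cells. It was 2.55-fold higher in TU_HEV than in TU_EC (1.73 to 3.97 over pairs of plates) and 1.28-fold higher in LN_HEV than in TU_HEV. Cd164, a widely expressed sialomucin, was at 77.6, 81.2 and 60.5 RPKM. Podxl2 (endoglycan), the third member of the CD34 family, had no count in LN_HEV or TU_HEV and was in 2 TU_EC cells. TU_HEV cells, which the gate chose for the glycan, thus had more Cd34, Cd300lg and Emcn than Glycam1 per kilobase of merged exons. That length was 2133 bases in 2 exon blocks for Glycam1 and 5409 bases for Emcn. The length of the transcripts present in these cells was not measured, and the order can depend on it.

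**Figure D5:**
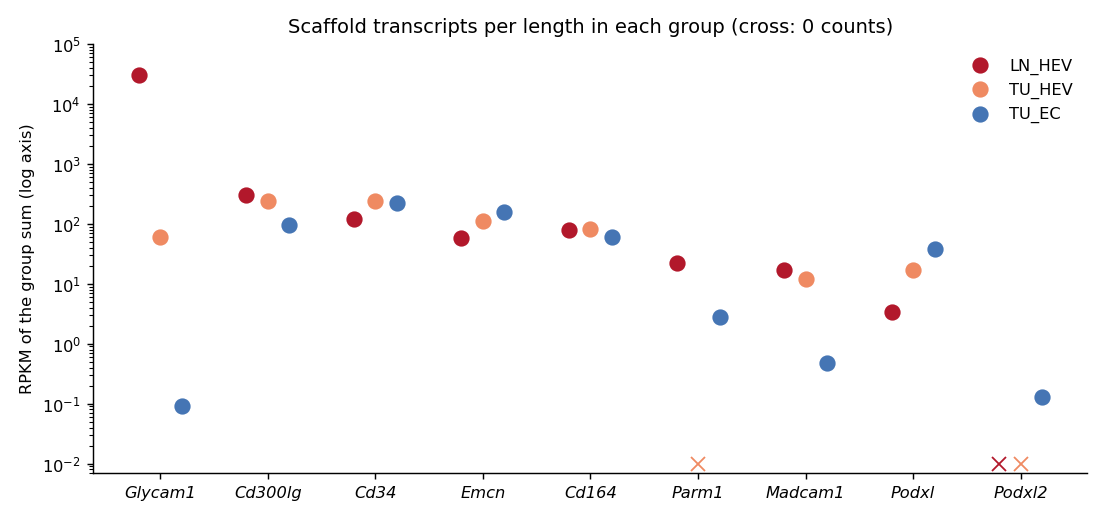
RPKM of 9 scaffold genes in each group on a log axis; crosses mark groups without a count. Glycam1 spans the widest range, from 30302 RPKM in LN_HEV to 0.093 in TU_EC, Cd34 and Cd164 the narrowest, and Podxl and Cd300lg are ordered in opposite directions.

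The counts of the lists that follow stand against the shares of all features at least 2-fold higher and lower: 8.82% and 21.8% for LN_HEV against TU_HEV, 20.6% and 6.55% for TU_HEV against TU_EC, and 17.2% and 15.6% for LN_HEV against TU_EC. With 6 to 13 genes measured in a list, a difference of 1 or 2 genes from these shares says little. The proteins' cytoplasmic partners were tallied from a list of 8 adaptors, of which 7, 6 and 7 were measured in the 3 comparisons. Ezr (ezrin), which links podocalyxin to actin, was the only one at least 2-fold higher in LN_HEV than in TU_HEV, at 14.9 against 4.84 CPM. Msn (moesin), its main relative in endothelium, was 2.52-fold lower in LN_HEV, at 520 against 1308 CPM, and Grb2 was also lower (17.6 against 46.3). Between the tumour groups only Slc9a3r2 (NHERF2), a scaffold that binds the tail of podocalyxin, was past 2-fold, at 163.4 CPM in TU_HEV and 331.1 in TU_EC; LN_HEV had 121.2 CPM. The median log2 ratios of the list were -0.43, -0.15 and -0.43.

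Enzymes that build the O-glycan cores differed in kind. Of 14 genes, 11 were measured between LN_HEV and TU_HEV, with 2 higher in LN_HEV and 5 lower (median -0.41). Gcnt1, which makes the core 2 branch, had 8.47 CPM in TU_HEV and was 28.0-fold higher in LN_HEV, and Galnt12, which starts O-glycans, had 49.2 CPM in LN_HEV and 18.3 in TU_HEV. B4galt1 and Galnt1 were lower in LN_HEV, at 33.6 against 128.4 and 33.2 against 111.6 CPM. Between TU_HEV and TU_EC, 3 of 10 were higher in TU_HEV, led by C1galt1 (19.3 against 6.62 CPM), which makes core 1, and B4galt4 (120 against 45.9). None was 2-fold lower. LN_HEV had 3 of 11 higher and 1 lower than TU_EC.

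Of the 14 genes that sulfate, fucosylate and sialylate these glycans, 13 were measured between LN_HEV and TU_HEV, with 6 higher in LN_HEV and 1 lower (median 0.98). Fut7 had 1063 CPM in LN_HEV and 18.4 in TU_HEV, and Chst4, at 1103 CPM in LN_HEV, was 5.33-fold lower in TU_HEV. The lower gene was St3gal1, which caps core 1 glycans with sialic acid, at 6.38 against 47.1 CPM. In TU_EC both Chst4 and Fut7 had no count, and 5 of 12 genes were higher in TU_HEV and none lower. Under size factors 4 of 12 were higher and 1 lower. Without ribosomal RNA and mitochondrial features 5 of 13 were higher and 1 lower. LN_HEV had 7 of 13 higher and 2 lower than TU_EC, the latter St3gal1 and Papss1, which makes the sulfate donor.

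Of 10 other addressins and adhesion receptors, 9 were measured. LN_HEV had 1 higher and 5 lower than TU_HEV (median -1.39), with Selp (P-selectin) at 29.4 against 2785 CPM, Sele (E-selectin) at 13.7 against 531 and Jam3 at 225.1 against 49.9. TU_HEV had 5 higher than TU_EC and none lower, among them Vcam1 (737 against 65.5 CPM) and Selp (2785 against 274.9). LN_HEV had 1 higher and 3 lower than TU_EC.

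Regulators of Madcam1 were tallied from a list of 12, of which 11 were measured. LN_HEV had 2 higher than TU_HEV (Relb, 2.07-fold, and Traf3, 40.6 against 17.1) and 2 lower (Bmp2 and Ltbr, the lymphotoxin-beta receptor, 53.0 against 120). TU_HEV had 4 higher than TU_EC and none lower, led by Map3k14, the NF-kB-inducing kinase (22.3 against 7.67 CPM), and Nfkb2 (77.5 against 29.8). LN_HEV had 6 higher and 1 lower than TU_EC. Nkx2-3, a homeobox factor that mucosal HEVs need for Madcam1, reached only 1.06 CPM in LN_HEV and had no count in either tumour group. Medians over the list were -0.17, 0.81 and 1.12. Under size factors the medians were -0.12, 0.39 and 0.78, and the counts of this list were 4 higher and 1 lower in LN_HEV than TU_HEV and 1 higher and 1 lower in TU_HEV than TU_EC; no median given above for the other lists changed its sign.

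Cells held several scaffolds at once. At 10 CPM, 48.9% of LN_HEV cells had 3 of the 5 genes and 38.3% had 2. In TU_HEV 51.0% had 2 and 36.7% had 3, and in TU_EC 63.0% had 3. The usual trio differed, since 83 LN_HEV cells had Parm1 and 17 Podxl, while 73.6% of TU_EC cells had Podxl and 5 cells had Parm1. No cell of any group had all 5. Of TU_EC cells, 10 had none at 10 CPM, and no cell of LN_HEV or TU_HEV had none.

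Across cells, values are Spearman's rho over the cells of a plate on thinned log2(CPM + 10), given as the lowest and highest plate, as a description; cells of a plate share library preparation and differ in depth. Cd34 and Emcn went together in TU_EC (0.49 to 0.62 over 4 plates) more than in LN_HEV (0.09 to 0.27) or TU_HEV (0.09 to 0.28); this difference was not tested. In TU_EC Cd34 also went with the capillary list (0.42 to 0.57) and with the total counts of a cell (0.26 to 0.63). Emcn in TU_EC was at 0.21 to 0.39 with that total. Cd34 was at 0.36 to 0.53 with the total in TU_HEV and at -0.03 to 0.03 in LN_HEV. Cd34 and Podxl were at 0.17 to 0.37 in TU_EC and -0.24 to -0.04 in TU_HEV. Podxl in TU_EC was at 0.24 to 0.31 with the tip cell list, 0.15 to 0.40 with the lymphatic, 0.13 to 0.28 with the capillary and 0.12 to 0.57 with the arterial list, and at -0.20 to 0.25 with the venous list.

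In LN_HEV Cd34 was lower in cells with more Glycam1, at -0.59 in the plate with the lowest value and -0.30 in the other. Glycam1 takes up part of the total by which Cd34 is scaled, and that part was not tested. Over the LN_HEV plates Emcn was at -0.12 and 0.08 with Glycam1, and Parm1 at -0.11 and 0.15.

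The features most like each gene were taken as those with the highest value in their lowest plate, if at least 0.3. For Podxl in TU_HEV the first of 4302 features was Slc9a3r2 (0.39 and 0.46), followed by Ccdc59 and Sdc3; in TU_EC they were Nid2 (0.40 to 0.44), Igfbp3, Eogt, Plpp3 and Cdh13. For Cd34 in TU_EC they were Esam (0.62 to 0.70), an endothelial adhesion protein, then Snx3, Cd81, Eif5a and Ppic. In TU_HEV those of Cd34 were Clec14a (0.40 to 0.44), Poglut1, Spns2, Pdia3 and Ext2, and in LN_HEV Entpd1 (0.35 to 0.36), Myl6, Itgb1, Jam2 and Gng11. For Emcn in TU_EC the first was Cd34 itself, then Pecam1 (0.49 to 0.60), Snx3, Eef1a1 and Eng. Emcn in TU_HEV had Anxa3 (0.31 to 0.36) and Pdia4, and none in LN_HEV. Between groups no feature was first for the same gene.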

How the data were processed

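Single endothelial cells were sequenced by Smart-seq2 with 23 PCR cycles and 75-base single-end reads, per the labels' protocols. The deposited files hold raw read counts per gene and cell. FastQC 0.11.4, STAR 2.4.1b, Subread 1.4.6-p2 and build mm10 (GRCm38) are named, per the submitters' processing notes; which annotation and strand setting were used is not given in the sources used here. Of 51826 listed features, 92 repeated rows were summed, leaving 51734 symbols, of which 92.1% were in GENCODE M21, used for positions and exon lengths.

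Cells needed at least 50000 counts, 1000 genes and at most 30% mitochondrial counts. They needed 10 CPM of at least 2 among Cdh5, Egfl7, Eng, Pecam1 and Tie1, and of fewer than 3 markers each of mural cells and fibroblasts, of epithelium and tumour, and of leukocytes. Srgn was taken off the leukocyte list because it reached 10 CPM in 51.5% of wells that passed the read filters. The 11 pool1 libraries of the selection rule were left out. No doublet caller was run, since cells were sorted singly. B cell, T cell, myeloid, erythroid and platelet, and blood progenitor and mast cell markers were tallied too.

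Counts were summed over a group or plate and scaled to CPM. Ratios have an exact conditional binomial 95% interval, shares an exact Clopper-Pearson interval, and both cover counting error only. Plates, which the labels do not tie to animals, stand as the spread. A group at 0 was set to 3 counts over the group; an upper limit for 0 cells is 3 cells of the total. A feature was past the fold at 2-fold with at least 10 CPM in the higher group. Shares are of cells at their full counts unless they are called thinned. Thinned shares and relations used cells thinned to 100000 counts (seed 1), which 4 cells could not reach. Relations were taken on log2(CPM + 10). The ratio code was tested on simulated data. Python 3.11.15, numpy 2.4.6, pandas 2.3.3 and scipy 1.17.1 were used.

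Named genes were the 5 chosen genes, at most 2 per direction with the largest ratio from each list and comparison, the 5 most alike features at a rho of at least 0.3, and genes for checks; Msn, Ezr, Slc9a3r2 and single cells were described further after their values were seen. The chosen genes and lists were set with earlier results of these data known. Alternatives left out each plate, varied the cell filters, scaling and weights, and are described at the end.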

Additional observations from a re-analysis of the deposited data

Results flagged for a closer look

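The 11 pool1 libraries that were left out of LN_HEV because they hold counts of TU_HEV libraries were measured by themselves. Their signal was above the limit that a count of 0 allows (0.0984 CPM) for all 5 genes. Cd34 had 1510 CPM there and Emcn 607 CPM, both above the LN_HEV level. Podxl had 13.2 CPM, from 7 of the 11 wells. Parm1 had 16.2 CPM, from 5 wells. Madcam1 had 161.1 CPM, all of it from 1 well with 4910 counts, more than the 3529 counts of all retained LN_HEV cells together.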

How the results depend on the processing

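No paired analysis was possible because the labels name no animal and the replicate numbers follow accession order only. Under the alternatives, 24 values of the 15 log2 ratios differed from the main value by more than 1 standard deviation over pairs of plates. None of the 2-fold differences changed sign. Among shares of cells, 7 values left their counting interval.

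Counts of the 5 genes past 2-fold changed as follows, where each group pair is given as first against second. LN_HEV against TU_HEV: 2 higher in place of 1 with the 11 pool1 libraries and without pool3; 3 lower in place of 1 without pool2, and 2 lower without pool3 and without pool4, the added ones being Madcam1 among the higher and Cd34 or Emcn among the lower. TU_HEV against TU_EC: 0 higher in place of 1 without pool3. There was 1 lower in place of 2 without the held TU_HEV libraries and without TU_EC cells with lymphatic markers (an alternative chosen after seeing the data). There were 0 lower without poolB, with equal weight per cell and in thinned cells. Podxl fell under 2-fold in those settings and without the held libraries. Madcam1 (log2 1.04 without pool3) and Parm1 stayed past 2-fold, and left the counts only where the higher group had under 10 CPM. For Parm1 the log2 ratio was -1.49 without the lymphatic-marked cells, -8.84 without poolB, -8.53 with equal weight and -4.68 in thinned cells. LN_HEV against TU_EC: 3 lower in place of 2 without pool2, under size factors and without ribosomal RNA and mitochondrial features, the added one being Cd34 (log2 -1.22, -1.01 and -1.08).

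Features past 2-fold depended on the filter and the scaling. With no filter beyond 3 counts they were 4312 higher and 5953 lower (833 and 2060 with the filter) for LN_HEV against TU_HEV, 5806 and 4919 (1908 and 606) for TU_HEV against TU_EC, and 5376 and 6077 (1585 and 1443) for LN_HEV against TU_EC. Without pool2, 3345 were lower in LN_HEV than TU_HEV and 2213 lower than TU_EC, and without pool4, 979 were lower in TU_HEV than TU_EC. Size factors gave 1366 lower in LN_HEV than TU_HEV, and 940 higher and 1083 lower in TU_HEV than TU_EC; leaving out ribosomal RNA and mitochondrial features gave 1269 and 1063 for the latter. Madcam1 rests on 12 cells in all. Thinning to 100000 counts took the share of TU_HEV cells with Podxl from 44.9% to 40.8%. The cause of these changes was not tested unless given.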

Other observations

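A few wells that passed the read filters but not the endothelial rule were outside every comparison. In 3 such TU_HEV wells none of the 5 genes had a count. In 7 of LN_HEV, Cd34 had 513 CPM, Emcn 214.8, Parm1 60.5 and Podxl 17.1, and Madcam1 none. In 6 of TU_EC, Cd34 had 68.9 CPM, Emcn 34.5, Parm1 31.8 and Podxl 7.50, and Madcam1 none; Parm1 was in 3 of these 6 wells, against 5 of all retained TU_EC cells.

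Podxl2 was seen in 2 TU_EC cells of poolB, with 96 and 67 counts. The second also held Parm1 at 848 CPM and Podxl at 843 CPM, had Prox1, the transcription factor of lymphatic endothelium, at 1757 CPM, and had no count of Cd34 or Emcn.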
